A study of Mus musculus with 12 samples.

Results

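The genes described here encode chaperones and folding enzymes of the endoplasmic reticulum, namely Hspa5, Hyou1, Dnajb11, Sdf2l1, Manf, Hsp90b1, Calr, Pdia4, Pdia6 and Creld2. They were taken by symbol from the gene rows of the count tables, and the 10 genes were all found among the 55385 genes of each table. All 10 passed the filter on low counts in every comparison.

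Proteins that are secreted or sit in membranes fold in the lumen of the endoplasmic reticulum, where chaperones hold them in a foldable state and disulfide isomerases pair their cysteines. When unfolded proteins accumulate there, the sensors IRE1, PERK and ATF6 start the unfolded protein response, and the transcription factors XBP1 and ATF6 then raise the genes of the chaperones. Satellite cells are the resident stem cells of skeletal muscle and lie quiescent beside the muscle fibre until injury activates them.

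RNA was measured in satellite cells isolated from the hindlimb muscles of C57BL/6J mice and frozen in liquid nitrogen straight after isolation. The 4 groups were Keap1 knockout females (KO166, KO178 and KO188), Keap1 Hetz females (Het164, Het165 and Het181), Keap1 knockout males (KO240, KO247 and KO255) and Keap1 Hetz males (Het204, Het245 and Het249), with 3 libraries each. Hetz, which another label spells "heterogeneous", was read as heterozygous and is written Het, so no group is wild type. The promoter or cell type driving a recombinase, the allele and the age were not given in the sources used here. Each library carries its own animal number, and nothing else says that the samples are biologically separate, so p-values measure the spread between these samples. KEAP1 holds the transcription factor NRF2 (gene Nfe2l2) for degradation, and the stated aim was to learn how the pair acts on satellite cells in each sex.

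Total counts ran from 13042039 to 19273245 per library. Females and males were counted in separate tables, so sex cannot be told apart from table or batch. Keap1 mRNA stood at 11.8, 12.8 and 11 CPM (counts scaled to library size with TMM factors) in the KO females, against 9.49, 7.1 and 7.93 CPM in the Het females. The male values were 6.38, 7.85 and 7.64 CPM for KO and 10, 5.34 and 8 CPM for Het. Its edgeR adjusted p was 0.186 in females and 0.936 in males. These counts run over all exons, a deleted exon included, and 10.9% of the exonic bases of Keap1 overlap Gm16754, so the labels remain unchecked by this gene, and KO below means the libraries labelled KO. Nfe2l2 averaged 461 ± 53.8 and 411 ± 43.9 CPM in KO and Het females, and 469 ± 8.95 and 422 ± 29.7 CPM in KO and Het males (SD, n = 3 each). Of 26 listed NRF2 targets, 21 were higher and 0 lower in KO females, and 12 were higher and 0 lower in KO males (edgeR). The 12 satellite cell markers were present in every group, with Pax7, the defining factor of these cells, between 10.3 and 29.7 CPM in the 12 libraries.

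Hspa5 was among the most abundant messages of these cells and took most of the counts of the 10 chaperones. By TPM, a level per transcript length, Hspa5 ranked between 3 and 7 in the 12 libraries and Hyou1 between 1282 and 2129. Hspa5 (ENSMUSG00000026864, GRCm38 chromosome 2, 34771970 to 34777547, plus strand) encodes BiP, the Hsp70 chaperone that binds unfolded proteins in the lumen. It had the highest CPM of all genes in 10 of 12 libraries and the next highest in KO178 and KO188. Together the 10 genes took 2.43, 2.01 and 1.91% of all counts in the KO females, against 3.26, 2.73 and 3.55% in the Het females. In males they took 2.99, 3 and 2.62% in the KO libraries and 2.64, 2.92 and 3.15% in the Het libraries. The shares of the KO females all lay below those of the Het females, while the male groups overlapped. Hspa5 supplied 70.2 to 72.5% of the chaperone counts in KO females, 74.8 to 79.1% in Het females, 82.6 to 84.3% in KO males and 80.3 to 82.4% in Het males.

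Per transcript length the order of the levels was steep. Hspa5 averaged 16616 TPM over the 12 libraries, Hsp90b1 1611 TPM, Pdia6 1051 TPM, Calr 822 TPM and Manf 635 TPM. Below these came Creld2 at 533 TPM, Pdia4 at 430 TPM, Dnajb11 at 418 TPM, Sdf2l1 at 179 TPM and Hyou1 at 96.4 TPM. Each of Hspa5, Hsp90b1, Pdia6, Dnajb11 and Sdf2l1 exceeded the next gene of this order in all 12 libraries. Calr exceeded Manf in 11 libraries, Manf exceeded Creld2 in 10, and Creld2 exceeded Pdia4 in 10. Pdia4 and Dnajb11 did not separate, with Pdia4 higher in 8 of 12 libraries.

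**Figure D1:**
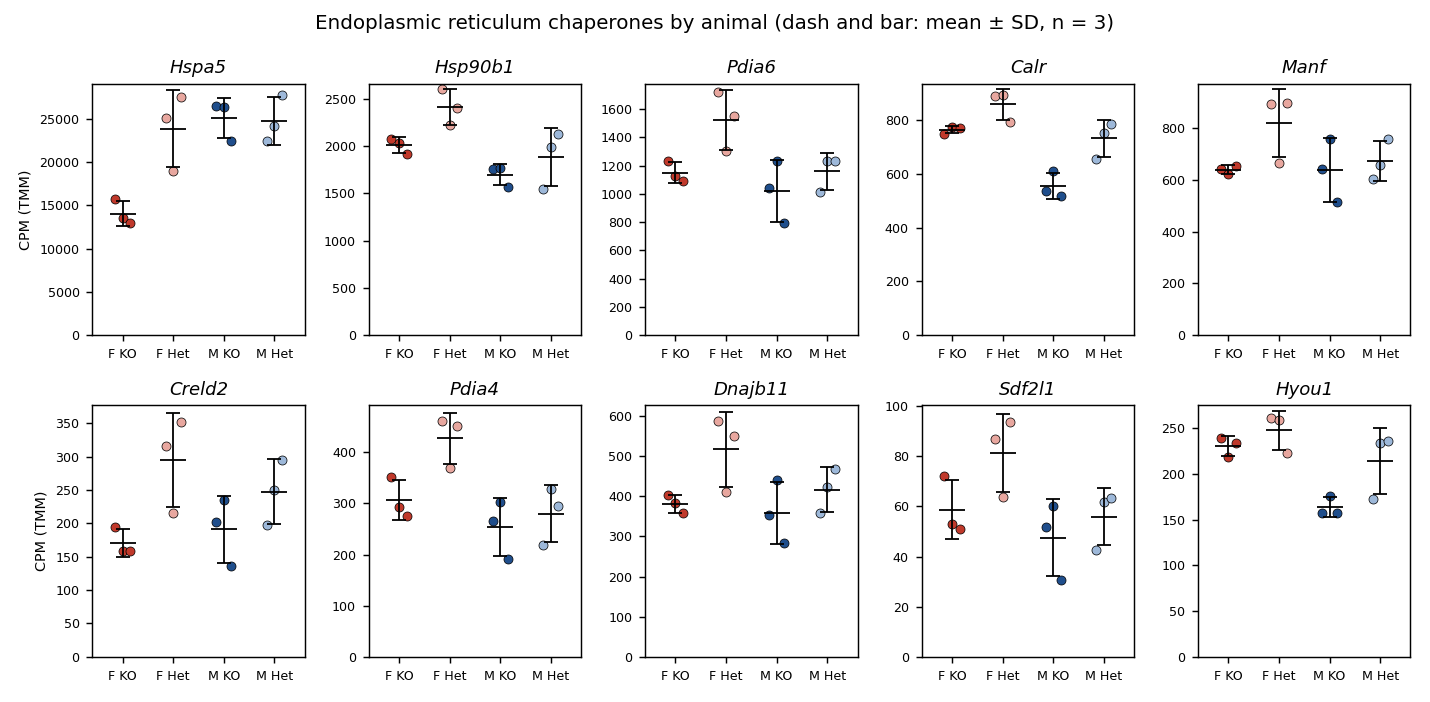
CPM (vertical axis, linear from 0, a scale of its own in each panel) of the 10 chaperone genes in female KO, female Het, male KO and male Het libraries. Each point is an animal, and the dash with its bar is the mean ± SD (n = 3). Hspa5 lay between 12970 and 15717 CPM in the KO females, below the libraries of the other 3 groups.

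Promoter sequence was read for 8 of the 10 genes, those found in the RefSeq promoter windows of GRCm38.p6, which span 250 bases before and 50 bases after the transcription start. Manf and Hyou1 were not matched. The windows of Hspa5 and Creld2 are shown whole because these genes had the largest differences in females, with capitals marking the ER stress element, the site through which ATF6 and NF-Y act on chaperone promoters, and in Hspa5 also TGACGTG, a core that XBP1 and ATF6 can bind.
Hspa5, chr2:34771840-34772139, plus strand: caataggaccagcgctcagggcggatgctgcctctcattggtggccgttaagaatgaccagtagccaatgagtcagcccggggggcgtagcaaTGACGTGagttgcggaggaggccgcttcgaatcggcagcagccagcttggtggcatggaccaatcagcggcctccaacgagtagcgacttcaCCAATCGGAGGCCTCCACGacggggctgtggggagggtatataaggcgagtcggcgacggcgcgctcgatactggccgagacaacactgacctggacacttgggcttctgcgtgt
Creld2, chr15:88819396-88819695, plus strand: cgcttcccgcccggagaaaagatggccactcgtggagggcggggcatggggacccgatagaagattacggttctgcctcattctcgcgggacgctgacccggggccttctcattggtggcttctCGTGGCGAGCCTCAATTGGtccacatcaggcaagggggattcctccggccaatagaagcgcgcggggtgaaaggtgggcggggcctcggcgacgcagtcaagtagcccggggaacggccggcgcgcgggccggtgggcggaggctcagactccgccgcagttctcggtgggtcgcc
For the other genes with an element, the element is shown in capitals with 10 bases on each side, so that its spacing and orientation can be compared.
Calr, chr8:84847065-84847103, minus strand: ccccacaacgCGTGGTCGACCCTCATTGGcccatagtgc
Hsp90b1, upstream element, chr10:86705628-86705666, minus strand: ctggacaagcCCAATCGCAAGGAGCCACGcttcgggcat
Hsp90b1, downstream element, chr10:86705523-86705561, minus strand: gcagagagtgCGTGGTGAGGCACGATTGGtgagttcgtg
Pdia6, chr12:17266481-17266519, plus strand: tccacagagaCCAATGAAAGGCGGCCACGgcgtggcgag
Dnajb11, ER stress element II, chr16:22857842-22857872, plus strand: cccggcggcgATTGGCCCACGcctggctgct

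The motifs were searched on both strands. The ER stress element, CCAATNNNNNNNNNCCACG, was found in 5 of the 8 chaperone windows, against 0.119% of all 32851 RefSeq promoter windows. Its first base, in the direction of transcription, lay 65 bases upstream of the RefSeq start in Hspa5 and 98 bases upstream in Pdia6, with the letters as spelled. The reverse complement lay 162 bases upstream in Calr and 126 bases upstream in Creld2. Hsp90b1 held the element as spelled 212 bases upstream and in reverse 107 bases upstream. All these distances are from RefSeq starts. The gene model counted for Hspa5 begins further upstream, at 34771970, so its element (34772025 to 34772043) lies inside that model. ER stress element II, ATTGGNCCACG, was found in Dnajb11 just inside the transcribed part and in 0.0365% of all windows. TGACGTG was found in Hspa5, 157 bases upstream, and in 2.01% of windows. CCACG, which ends both elements and so overlaps every match to them, was found in 8 of 8 chaperone windows and in 32.8% of all windows. The windows of Pdia4 and Sdf2l1 held CCACG and neither element. Of the 32 other genes whose window held the ER stress element, 13 were tested in females, where 0 passed the edgeR threshold, 2 had an unadjusted p under 0.05 and DESeq2 called 1 lower. Of the 13 estimates 6 were below 0 (median log2 fold change 0.02). Among these 13, Dnajc3, a co-chaperone of BiP, had a log2 fold change of -0.63 (edgeR adjusted p = 0.0602) and the membrane lectin chaperone gene Canx one of -0.22 (edgeR adjusted p = 0.454). A match to the letters is a description of the sequence, and binding was not measured.

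In females, Creld2 fell and the other 9 chaperone genes had lower mean levels in KO than in Het cells without passing the test. Of the 10 genes 1 was called lower (edgeR, adjusted p under 0.05), against 0.983% of all 14036 genes tested. The estimate was below 0 for 10 of 10 genes, against 49.5% of all genes tested. The median log2 fold change was -0.42 for the chaperones and 0.00 for all genes tested. Of the 10 genes 7 had an unadjusted p under 0.05, as had 2511 of all genes tested. In 8 of 10 genes every KO library lay below every Het library, against 10.1% of all genes tested. The chaperones moved together from animal to animal, as described below, so they are not 10 separate observations. In RNA from whole cell preparations, fewer cells of a type and less RNA per cell cannot be told apart.

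Within the Hsp70 system, Hspa5 stood at 15717, 13520 and 12970 CPM in the KO females, against 25093, 18989 and 27594 CPM in the Het females. The groups did not overlap, and Het165 was the Het library nearest to the KO animals. The log2 fold change was -0.77 ± 0.184 (SE; 95% interval -1.16 to -0.37), or 1.7-fold lower, and the edgeR adjusted p of 0.0519 missed the threshold. Dnajb11 (ENSMUSG00000004460, chromosome 16, 22857845 to 22879634, plus strand), the J-domain protein that hands unfolded clients to BiP, stood at 402, 383 and 357 CPM in the KO females, against 588, 411 and 550 CPM in the Het females. These groups did not overlap either, though KO166 and Het165 were close (log2 fold change -0.44 ± 0.156, edgeR adjusted p = 0.171). Sdf2l1 (ENSMUSG00000022769, chromosome 16, 17130138 to 17132383, minus strand), a partner of DNAJB11 in the BiP cycle, stood at 72.2, 52.8 and 51.1 CPM in the KO females, against 86.8, 63.7 and 93.5 CPM in the Het females. Here KO166 lay above Het165, so the groups overlapped (log2 fold change -0.47 ± 0.179, edgeR adjusted p = 0.199).

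Manf (ENSMUSG00000032575, chromosome 9, 106838312 to 106891979, minus strand), a resident factor that binds BiP and can be secreted, stood at 643, 622 and 654 CPM in the KO females, against 894, 667 and 896 CPM in the Het females. The KO libraries were tightly grouped below the lowest Het library, Het165 (log2 fold change -0.36 ± 0.151, edgeR adjusted p = 0.239). Of its exonic bases 9.25% overlap other gene models. Hyou1 (ENSMUSG00000032115, chromosome 9, 44379490 to 44392369, plus strand), the large Hsp70 relative that exchanges nucleotide on BiP, stood at 239, 218 and 234 CPM in the KO females, against 261, 259 and 223 CPM in the Het females. It had the estimate nearest to 0 of the 10 genes and its groups overlapped (log2 fold change -0.11 ± 0.133, 95% interval -0.40 to 0.18, edgeR adjusted p = 0.714).

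Hsp90b1 (ENSMUSG00000020048, chromosome 10, 86690209 to 86705509, minus strand), the Hsp90 of the endoplasmic reticulum, which folds integrins and Toll-like receptors, stood at 2078, 2029 and 1920 CPM in the KO females, against 2606, 2222 and 2400 CPM in the Het females. The groups did not overlap (log2 fold change -0.26 ± 0.143, edgeR adjusted p = 0.357), and 15.7% of its exonic bases overlap other gene models, which leaves its unstranded count uncertain. Calr (ENSMUSG00000003814, chromosome 8, 84841850 to 84846934, minus strand) encodes calreticulin, the soluble lectin chaperone and calcium buffer. It stood at 749, 776 and 771 CPM in the KO females, against 889, 895 and 793 CPM in the Het females, with no overlap and a small difference (log2 fold change -0.17 ± 0.136, edgeR adjusted p = 0.546).

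Among the disulfide enzymes, Creld2 (ENSMUSG00000023272, chromosome 15, 88819646 to 88826683, plus strand), an EGF-domain protein with isomerase activity that is induced by endoplasmic reticulum stress, stood at 195, 159 and 159 CPM in the KO females, against 316, 216 and 352 CPM in the Het females. It was 1.72-fold lower in KO females, with no overlap (log2 fold change -0.79 ± 0.179, 95% interval -1.17 to -0.40, edgeR adjusted p = 0.0403). Pdia4 (ENSMUSG00000025823, chromosome 6, 47796141 to 47813430, minus strand), a disulfide isomerase, stood at 351, 293 and 276 CPM in the KO females, against 461, 370 and 451 CPM in the Het females. The groups did not overlap (log2 fold change -0.48 ± 0.15, edgeR adjusted p = 0.125). Pdia6 (ENSMUSG00000020571, chromosome 12, 17266545 to 17284770, plus strand), a disulfide isomerase that also acts on the sensor IRE1, stood at 1234, 1125 and 1092 CPM in the KO females, against 1718, 1301 and 1552 CPM in the Het females. Again every KO library lay below every Het library (log2 fold change -0.41 ± 0.151, edgeR adjusted p = 0.193).

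The calls in females depended on single animals. Without Het165, 7 of the 10 genes were called lower (Hspa5, Creld2, Pdia4, Pdia6, Sdf2l1, Manf and Dnajb11), against 4.99% of all genes in that fit. Without any other female animal 0 of 10 passed. The edgeR adjusted p of Creld2 was 0.00236 without Het165, and 0.149, 0.141, 0.0838, 0.161 and 0.184 without Het164, Het181, KO166, KO178 and KO188. That of Hspa5 was 0.00704 without Het165 and between 0.0944 and 0.242 without each of the other animals. DESeq2 called 3 of 10 lower (Hspa5, Creld2 and Pdia4; 2.99% of its genes), and limma voom with sample quality weights, which gave Het165 the lowest weight of the 6 libraries (0.462), called 4 (Hspa5, Creld2, Pdia4 and Dnajb11; 2.42% of genes). The estimates of all 10 genes lay below 0 in each of the 13 alternative fits run for females.

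**Figure D2:**
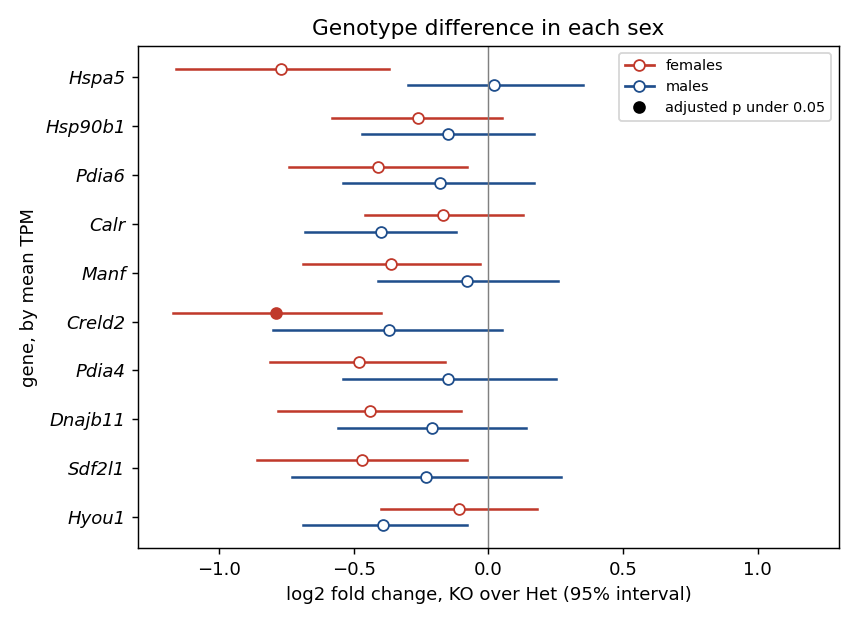
Log2 fold change of KO over Het (horizontal axis) of the 10 chaperone genes in females (upper mark of each pair) and males (lower mark), with 95% intervals from edgeR. A filled mark has an adjusted p under 0.05, which held for Creld2 in females alone. In females Hspa5 lay at -0.77 and in males at 0.02.

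In males none of the 10 genes passed the test (0 of 10, edgeR; 0.157% of all 13361 genes were called lower), and 2 of 10 had an unadjusted p under 0.05, Calr and Hyou1, as had 1652 of all genes tested. DESeq2 also called 0 of 10. Hspa5 stood at 26459, 26454 and 22505 CPM in the KO males, against 22409, 24183 and 27841 CPM in the Het males. The groups lay over each other (log2 fold change 0.02 ± 0.15, 95% interval -0.30 to 0.35, edgeR adjusted p = 0.976). Creld2 stood at 202, 235 and 136 CPM in the KO males and at 197, 250 and 295 CPM in the Het males, with an overlap and a log2 fold change of -0.37 ± 0.195 (edgeR adjusted p = 0.486). Calr was the only gene whose male groups did not overlap, which held for 7.8% of all genes tested in males. Its level was 537, 611 and 520 CPM in the KO males, against 657, 754 and 788 CPM in the Het males (log2 fold change -0.40 ± 0.13, edgeR adjusted p = 0.222). Hyou1 stood at 157, 176 and 157 CPM in the KO males and at 173, 234 and 236 CPM in the Het males, where KO247 lay above Het204 (log2 fold change -0.39 ± 0.141, edgeR adjusted p = 0.276). Calr and Hyou1, with the smallest differences in females, had the largest estimates below 0 in males.

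The other 6 genes overlapped between the male groups. Pdia4 averaged 253 ± 56.5 CPM in KO and 280 ± 56.2 CPM in Het males, and Pdia6 1021 ± 221 CPM in KO and 1159 ± 128 CPM in Het males. Dnajb11 averaged 359 ± 77.7 and 415 ± 55.7 CPM, Sdf2l1 47.6 ± 15.3 and 55.9 ± 11.4 CPM, and Manf 638 ± 122 and 674 ± 79 CPM in KO and Het males. Hsp90b1 averaged 1696 ± 113 CPM in KO and 1886 ± 307 CPM in Het males (SD, n = 3 each). Their log2 fold changes ran from -0.23 for Sdf2l1 to -0.08 for Manf. The estimate was below 0 for 9 of 10 genes in males, against 48.3% of all genes tested. As in females, the 10 genes are not separate observations. Their median was -0.20, against 0.01 for all genes tested. The chaperone median was -0.05 without KO255, -0.35 without KO247, -0.31 without Het204 and -0.13 without Het249.

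Averaged over the sexes, Creld2 was again the gene called lower (1 of 10, edgeR, against 1.27% of all 14772 genes). Its log2 fold change was -0.58 ± 0.147 (edgeR adjusted p = 0.0379). That call was lost without Het164, Het181, KO178, KO188, Het245, Het249, KO240 or KO255 (adjusted p 0.0623 to 0.113). It was also lost in a model without the sex-by-genotype term (edgeR adjusted p = 0.0562). Hspa5 (-0.37 ± 0.116, edgeR adjusted p = 0.0951) and Calr (-0.28 ± 0.0884, edgeR adjusted p = 0.0956) did not pass. The 10 estimates were all below 0, as were 50.6% of all genes tested. Their median was -0.30, against -0.00 for all genes tested.

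Whether the genotype difference itself differed between the sexes was tested as the difference of the log2 fold changes. None of the 10 genes passed (0 of 10; edgeR called 0.00677% of all genes, and DESeq2 called Hspa5). The estimate for Hspa5 was -0.78 ± 0.233 (95% interval -1.27 to -0.29, edgeR adjusted p = 0.209, unadjusted p = 0.00364), the only unadjusted p under 0.05 among the 10. Of all 14772 genes tested 1829 had an unadjusted p under 0.05. Hspa5 passed in DESeq2 (adjusted p = 0.0209), with sample quality weights in limma (adjusted p = 0.024), with no filter on low counts (edgeR adjusted p = 0.0205) and without Het165 (edgeR adjusted p = 0.047). Over all 18 alternatives its adjusted p ran from 0.0205 to 0.481. Creld2 had a difference of -0.41 ± 0.293 (edgeR adjusted p = 0.605). Calr and Hyou1 had differences above 0, of 0.23 ± 0.177 and 0.29 ± 0.192 (edgeR adjusted p = 0.635 and 0.581).

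Between the sexes, averaged over genotypes, Hspa5 was lower in females and 4 of the other genes were higher. Of the 10 genes 4 were called higher in females, against 13.2% of all genes, and 1 was called lower, against 14.6%. With library totals in place of TMM factors the split of all genes was 3268 higher and 1456 lower, against 1957 and 2153 with TMM, the median of all genes moved to 0.14 from 0.01, and 8 of the 10 chaperones were called higher. Hspa5 averaged 14069 ± 1453 CPM in KO females and 23892 ± 4426 CPM in Het females, against 25139 ± 2282 CPM in KO males and 24811 ± 2770 CPM in Het males (SD, n = 3 each). Its log2 fold change of females over males was -0.45 ± 0.117 (edgeR adjusted p = 0.00873), and the Het groups of the sexes overlapped.

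Calr had a log2 fold change of females over males of 0.35 ± 0.0884 (edgeR adjusted p = 0.00774) and averaged 765 ± 14.6 and 859 ± 57.1 CPM in KO and Het females, against 556 ± 48.6 and 733 ± 68.3 CPM in KO and Het males. Hyou1 was higher by 0.35 ± 0.0961 on the log2 scale (edgeR adjusted p = 0.0114) and Pdia4 by 0.44 ± 0.126 (edgeR adjusted p = 0.0145). Hsp90b1 was higher by 0.30 ± 0.0995 (edgeR adjusted p = 0.0328), a call lost without Het164, KO166, KO178, Het204 or KO255 (adjusted p 0.0602 to 0.0882). Pdia6 (0.28), Sdf2l1 (0.42), Dnajb11 (0.20), Manf (0.14) and Creld2 (0.05) did not pass. Because the sexes came in separate tables, these values compare the tables as much as the sexes.

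Within the groups, the chaperone genes moved together from animal to animal. Het165 was the lowest of the 3 Het females for 8 of 10 genes, all but Calr and Hyou1, while it was the lowest for 34.9% of all genes. Among KO males KO255 was the lowest for 9 of 10 (35.7% of all genes) and KO247 the highest for 9 of 10 (34.8%). Het204 was the lowest of the Het males for 10 of 10 (33.5% of all genes), and Het249 the highest for 8. In KO females KO166 was the highest for 8 of 10 (34% of all genes). The widest swing was that of Sdf2l1 in KO males, at 51.9 and 60.2 CPM in KO240 and KO247 against 30.6 CPM in KO255.

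**Figure D3:**
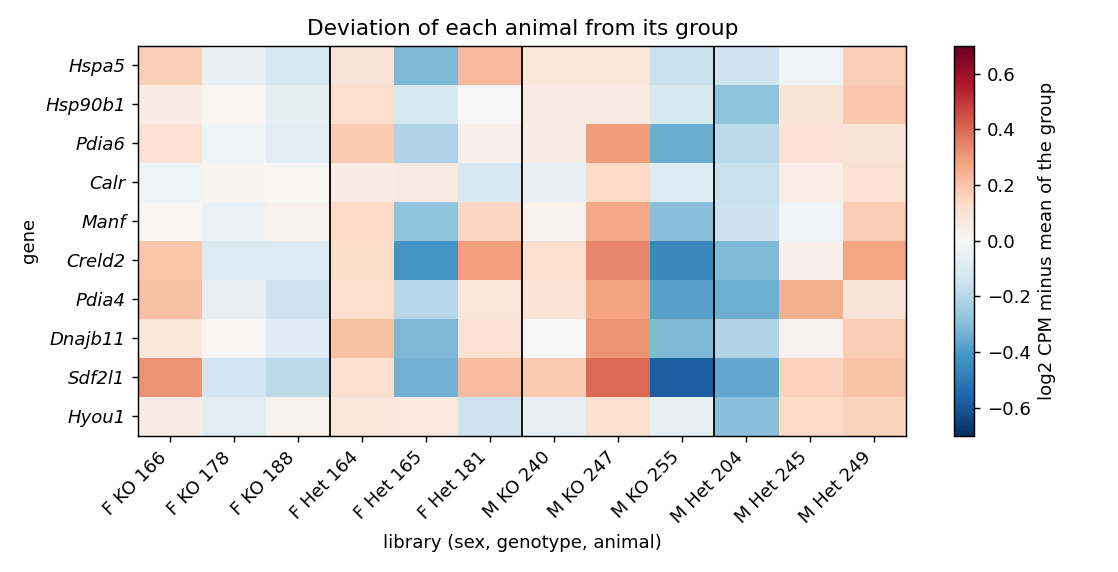
Deviation of log2 CPM from the mean of the animal's own group (colour, blue low and red high) for the 10 genes (rows, by mean TPM) in the 12 libraries (columns, in 4 groups split by lines). Columns tend to hold 1 colour, as in male Het204, which was the lowest of its group for 10 of 10 genes.

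As a description, log2 CPM was centred on the group means and compared over the 12 libraries. All genes of a library share its depth and preparation, and total counts differed between libraries. The part of these in the correlations was not tested. Over the 45 pairs of chaperones the median Pearson r was 0.77, and 20 pairs were above 0.8. The highest was that of Pdia4 with Sdf2l1 (0.96) and the lowest that of Hspa5 with Calr (0.08). With the mean of the other 9 genes, Pdia6 had an r of 0.95 (Spearman rho 0.93) and Dnajb11 one of 0.94 (rho 0.94). Hspa5 had an r of 0.74 (rho 0.71), and Calr (0.56, rho 0.58) and Hyou1 (0.55, rho 0.59) were the least alike.

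Of 13062 genes compared in this way, those most like the mean of the chaperones included Sec23b, Zfp422, Mrps12, Ube2j1, Ubap2l, Ssr2 and Hax1, with an r of 0.94 to 0.96. Sec23b encodes a coat protein of vesicles that leave the endoplasmic reticulum (r = 0.96, rho 0.92, and r = 0.92 without the 2 libraries farthest out, male Het204 and male KO255). Ube2j1 encodes a ubiquitin-conjugating enzyme of the endoplasmic reticulum membrane (r = 0.95, rho 0.86, and r = 0.90 without those libraries). Ssr2 encodes a subunit of the translocon-associated complex (r = 0.94, rho 0.85, and r = 0.89 without them). None of these genes was called between genotypes in either sex by edgeR, with 1 unadjusted p under 0.05 in females and 0 in males, and DESeq2 called 1 lower in females. Sec23b came nearest, with a log2 fold change of -0.48 in females (edgeR adjusted p = 0.0992).

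How many other genes of the endoplasmic reticulum were called depended on the tool. Of 145 such genes in 6 lists, 142 were tested in females, where edgeR called 0 higher and 1 lower, and DESeq2 1 higher and 11 lower. Of all genes, edgeR called 0.983% lower and DESeq2 2.99%. Of the 142 genes 31 had an unadjusted p under 0.05, as had 2511 of all 14036 genes tested. The 142 genes had a median log2 fold change of -0.10, with 93 estimates below 0. In males 0 of 141 were called (edgeR and DESeq2), with a median of 0.02 and 65 estimates below 0. Of the 141 genes 11 had an unadjusted p under 0.05, as had 1652 of all 13361 genes tested. Averaged over the sexes 2 of 142 were higher and 1 lower. The gene lower in females was Dnajc25, a J-domain protein, at 93.1 ± 5.02 CPM in KO and 157 ± 38.3 CPM in Het females (1.69-fold lower, edgeR adjusted p = 0.0403). Creld1, the membrane-bound relative of Creld2, averaged 37.6 ± 2.76 CPM in KO and 21.9 ± 5.77 CPM in Het females, and 33 ± 5.08 CPM in KO and 22 ± 2.49 CPM in Het males. It was called higher over the sexes (1.6-fold, edgeR adjusted p = 0.00504), the opposite direction to Creld2. Ppic, an endoplasmic reticulum prolyl isomerase, was also higher over the sexes (1.31-fold, edgeR adjusted p = 0.0365).

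By list, 0 of 16 other disulfide isomerases and oxidases passed in females (median -0.04; DESeq2 called 1 lower). Pdia3, the isomerase that works with calreticulin, came nearest, at 1752 ± 109 CPM in KO and 2867 ± 715 CPM in Het females (log2 fold change -0.71, edgeR adjusted p = 0.072), and Ero1a, the oxidase that recharges the isomerases, had a log2 fold change of -0.50 (edgeR adjusted p = 0.157). Of 34 lectin chaperones, co-chaperones and prolyl isomerases 1 was lower (median -0.07; DESeq2 called 1 higher and 4 lower). Endoplasmic reticulum-associated degradation had 0 of 30 called (median -0.10), the translocon and signal peptidase 0 of 24 (median -0.13), oligosaccharyltransferase 0 of 12 (median 0.03), and KDEL receptors and transport to the Golgi 0 of 27 (median -0.22), all by edgeR. In the same order 6, 3, 2 and 8 genes had an unadjusted p under 0.05, and DESeq2 called 2, 1, 0 and 3 lower. Those with the smallest p were Herpud2 (log2 fold change 0.43) and Selenos (-0.62) in degradation, the signal peptidase gene Spcs2 (-0.71) and Sec61a2 (-0.48) in translocation, the transferase genes Tusc3 (0.46) and Stt3a (-0.43), and Sec23b and Tmed9 (-0.54) in transport. Their edgeR adjusted p ran from 0.0849 for Spcs2 to 0.195 for Stt3a. Without Het165, between 1 and 7 genes of each of these lists were called lower in females, and 0 to 2 higher. Of all 14439 genes in that fit 4.99% were called lower, and 758 genes were called higher.

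The regulators of the response were mixed. Of 16 sensors, processing proteases and transcription factors 0 passed with edgeR in females (median -0.00) and 0 in males (median -0.13), with unadjusted p under 0.05 for 3 in females and 2 in males, and DESeq2 called 3 lower in females and 0 in males. Without Het165, 2 were called lower in females, against 4.99% of all genes in that fit. Nfyb, a subunit of the NF-Y factor that binds CCAAT, had a log2 fold change of -0.56 in females (edgeR adjusted p = 0.0715), and Creb3l1, an ATF6-like factor, one of -0.62 (edgeR adjusted p = 0.0947). Named here for their role with their values already seen, Xbp1 had a log2 fold change of -0.41 in females (edgeR adjusted p = 0.148), Atf6 one of 0.04 (edgeR adjusted p = 0.908) and Ern1, which encodes IRE1, one of -0.18 (edgeR adjusted p = 0.569). Named likewise, Eif2ak3, which encodes PERK, had one of -0.07 in females (edgeR adjusted p = 0.854) and Atf4 one of 0.56 (edgeR adjusted p = 0.0736). Of 16 genes of the PERK and ATF4 branch 1 was higher and 1 lower in females. Ppp1r15a, the phosphatase subunit that ends the PERK signal, averaged 868 ± 60.6 CPM in KO and 1589 ± 208 CPM in Het females (1.83-fold lower, edgeR adjusted p = 0.00765), and it also stands among genes induced early by cell stress. Slc7a11, the cystine transporter, which is an NRF2 target as well, averaged 223 ± 50.9 CPM in KO and 29.8 ± 10.4 CPM in Het females (7.47-fold higher, edgeR adjusted p = 0.000106). In males it averaged 53.3 ± 24 CPM in KO and 9.19 ± 3.42 CPM in Het cells (edgeR adjusted p = 0.0261). Of 7 transcripts known as substrates of IRE1 0 passed in either sex (edgeR and DESeq2; unadjusted p under 0.05 for 1 in females and 2 in males), and Scara3, a scavenger receptor gene, was lower over the sexes (1.49-fold, edgeR adjusted p = 0.0279).

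**Figure D4:**
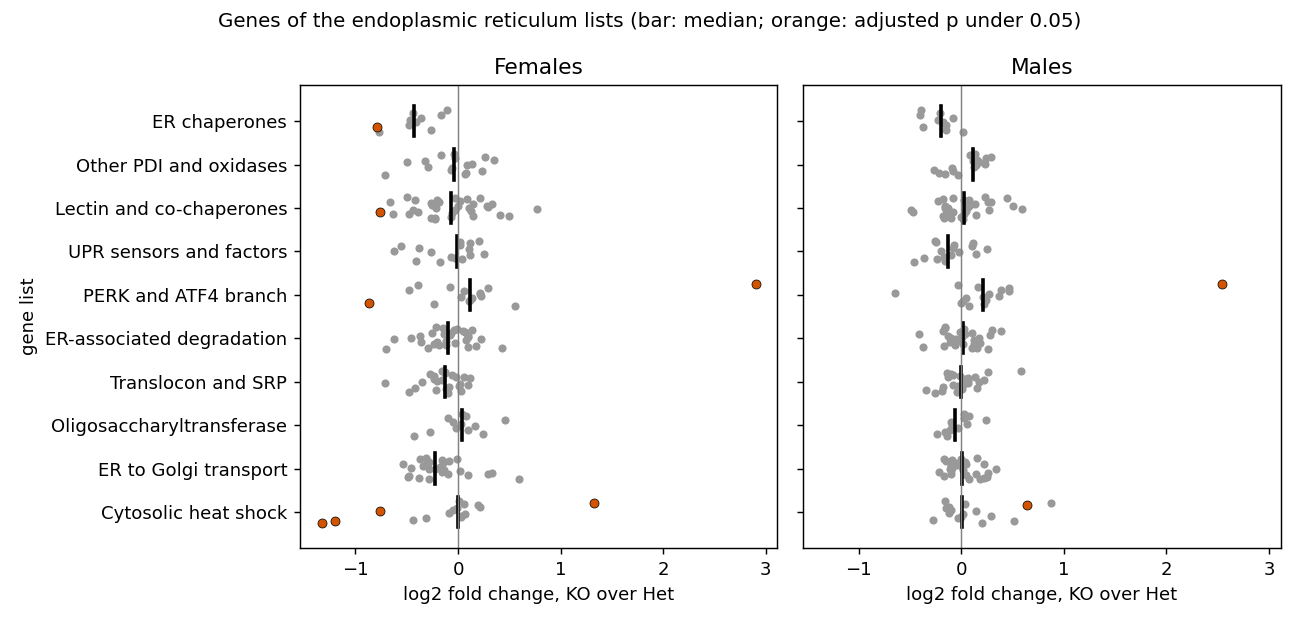
Log2 fold change of KO over Het (horizontal axis) of each tested gene (point) in the chaperone genes and 9 other lists (rows), in females on the left and males on the right. Bars are list medians and orange points have an edgeR adjusted p under 0.05. The chaperone row has a median of -0.42 in females and -0.20 in males, and the orange points far to the right are Slc7a11.

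Other measures differed between the genotypes in females beside the chaperones. The summed level of 16 leukocyte and macrophage markers was 57.2 to 86.5 CPM in KO females and 126 to 190 CPM in Het females, where 3 of 15 tested were lower (Cd74, H2-Ab1 and Lyz2, edgeR) and no marker was at 0 in a whole group. The 12 satellite cell markers summed to 8813 to 11439 CPM in KO females and 13024 to 14303 CPM in Het females. Much of this sum was Sdc4, at 4108, 5853 and 4585 CPM in KO and 7008, 6527 and 8128 CPM in Het females. Of the 12 markers edgeR called 2 lower (Spry1 and Cd34) and DESeq2 4. Their median log2 fold change was -0.41, with 10 of 12 below 0. Pax7 stood at 12.9, 12.4 and 12.1 CPM in KO females, against 10.6, 15.4 and 12.7 CPM in Het females. Cdh15 stood at 185, 156 and 190 CPM in KO females, against 88.6, 186 and 96 CPM in Het females. Immediate early and dissociation genes, which rise while tissue is dissociated, summed to 13529 to 13687 CPM in KO females and 17223 to 19984 CPM in Het females. Of these, 6 of 24 were lower (Btg2, Ier2, Dusp1, Dnajb1, Hspa1a and Hspa1b, edgeR). The last 3 are heat shock genes and are counted again below among the cytosolic heat shock proteins. Myofibre and endothelial markers leaned the other way without a call by edgeR or DESeq2. The 12 myofibre markers summed to 133 to 698 CPM in KO females and 120 to 352 CPM in Het females. Their median log2 fold change was 0.96, with 0 of 10 tested below 0. The top of the KO range came from KO166, the highest KO female for every one of these markers. Ckm stood at 42.8, 3.63 and 11.2 CPM in KO166, KO178 and KO188, against 5.12, 7.29 and 17.8 CPM in the Het females. Atp2a1 stood at 90.3, 30.4 and 43 CPM, against 17.3, 29.8 and 31.4 CPM. The 12 endothelial markers summed to 126 to 155 CPM in KO females and 112 to 131 CPM in Het females, which overlap. Their median was 0.41, with 1 of 12 below 0. That 1 was Tek, which edgeR called lower over the sexes (1.49-fold, adjusted p = 0.0392). The 14 markers of fibro-adipogenic progenitors summed to 4494 to 5246 CPM in KO females and 4761 to 7298 CPM in Het females, which overlap. Of these 14, edgeR called 0 and DESeq2 called 2 lower in females (median log2 fold change -0.35, 10 of 14 below 0). Mitochondrial rRNA took 0.733 to 1.03% of counts in KO females and 0.302 to 0.507% in Het females, against 0.226 to 0.407% in KO males and 0.409 to 0.601% in Het males. The part of these measures in the chaperone values was not tested.

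Plasma cells hold much of these chaperones, so 11 B and plasma cell markers were summed as well. They came to 45 to 91.3 CPM in KO females and 65.4 to 212 CPM in Het females, and to 32.8 to 91.9 CPM in KO males and 47.5 to 222 CPM in Het males, with 0 of 7 tested called in females (edgeR; 1 had an unadjusted p under 0.05 and DESeq2 called 1 lower) and 1 of 6 lower in males. That gene was Sdc1, which encodes the surface proteoglycan syndecan-1, at 28.2 ± 0.66 CPM in KO and 48.3 ± 7.98 CPM in Het males (1.71-fold lower, edgeR adjusted p = 0.0296) and 34.3 ± 1.31 CPM in KO and 48.5 ± 6.11 CPM in Het females (edgeR adjusted p = 0.103). It was also lower over the sexes (1.56-fold, edgeR adjusted p = 0.000999). The plasma cell marker Mzb1 was at most 0.357 CPM in every library. The top of each Het range came from 1 library. The immunoglobulin gene Ighm stood at 75.7 CPM in Het164, against 5.7 and 8.99 CPM in Het165 and Het181. In males it stood at 85.3 CPM in Het204, against 5.17 and 0 CPM in Het245 and Het249. Sdc1 lay between 27.8 and 57.5 CPM in every library. The part of these cells in the chaperone values was not tested.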

How the data were processed

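RNA was measured in 12 libraries, 3 in each of 4 groups of sex and Keap1 genotype. Per the labels' protocols, RNA was taken with a small-input column kit, cDNA was made by Smart-Seq2 and libraries with Tn5, without molecular identifiers, so a floor of 3 counts (0.144 to 0.237 CPM) covers counting error only. The deposited values are whole counts for each gene, made, per the file headers, with featureCounts 2.0.0 in paired mode on exons of Ensembl GRCm38 release 99, without strand and without reads mapped to several places or several genes. Per the file headers they are not estimated counts, and no value was rounded. The submitters' processing notes name STAR, Subread, DESeq2 and mm10, whose versions are not given in the sources used here. Of 55385 genes 55144 were given a symbol from GENCODE M21, and 31671 had a count.

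Genes were tested with edgeR 4.0.16 (R 4.3.3) by its quasi-likelihood method (TMM, minimum count 10), fitted on all genes, with Benjamini-Hochberg adjustment over all genes tested and a threshold of 0.05. KO and Het were compared within each sex from 6 libraries, and the average, the difference of the sexes and females over males came from 1 fit of 12. CPM used TMM factors over the 12 libraries, and TPM the gene lengths in the files. Correlations used log2(CPM + 0.5) centred on group means. Alternatives were DESeq2 1.42.0, limma 3.58.1 (voom, with and without sample quality weights), other size factors, no filter, a fit of all libraries and leaving out each animal. The count tests were tested on simulated data.

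The 10 genes and the lists were chosen with earlier results of these data known, so no list result is independent support. The rule for named genes takes the 10 chaperones, Keap1 and Nfe2l2, up to 6 called genes per list (or the 2 with the smallest p in females) and the 8 genes most like the chaperones, of which 1 is not reported here. Protein sequences were not used here. Libraries of a group differed by more than sampling noise (chi-square over degrees of freedom 12.4 to 65.2) and were each taken as 1 replicate.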

Additional observations from a re-analysis of the deposited data

Results flagged for a closer look

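Among all 14772 genes, Aldh3a1 (ENSMUSG00000019102, chromosome 11), an aldehyde dehydrogenase and NRF2 target outside the chaperones, was the only gene for which edgeR called a difference between the sexes in the genotype effect, with a log2 difference of 2.51 ± 0.344 (SE, edgeR adjusted p = 0.0319). It was also called by DESeq2, with sample quality weights and with no filter, among 243, 232 and 358 genes, and the call was lost without female Het181, female KO188, male Het245 or male KO240. It averaged 248 ± 58.7 CPM in KO and 11.4 ± 2.22 CPM in Het females, and 124 ± 30.9 CPM in KO and 32.6 ± 10.4 CPM in Het males (SD, n = 3 each).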

How the results depend on the processing

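No paired analysis was possible because every animal number occurs once. Of 810 estimates of the chaperones under alternatives, 737 kept direction and side of the threshold, 40 passed anew, 20 no longer passed and 13 changed sign, all of these 13 when 1 animal was left out, and the cause was not tested. In males Hspa5 was -0.06 without Het204, -0.00 without Het245, -0.03 without KO240 and -0.01 without KO247, Manf 0.01 without Het249 and 0.05 without KO255, and without KO255 Pdia4 was 0.02 and Sdf2l1 0.00. Hsp90b1 had a difference of the sexes of 0.02 without male Het204. Creld2 in females over males was -0.03 without Het181, -0.00 without KO166, -0.02 without Het204 and -0.04 without KO255. With each animal left out in turn, the male log2 fold change ran from -0.06 to 0.10 for Hspa5, -0.31 to 0.02 for Pdia4, -0.43 to 0.00 for Sdf2l1 and -0.21 to 0.05 for Manf, the difference for Hsp90b1 from -0.21 to 0.02, and females over males for Creld2 from -0.04 to 0.14.

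Chaperones called lower in females numbered 3 with DESeq2 (of all genes, 379 of 12694), 2 with limma voom (123 of 14036), 4 with sample quality weights (340 of 14036) and 2 with no filter (491 of 29014). They numbered 2 in the fit of all 12 libraries (230 of 14772), 0 with library totals only (96 of 14036), and 0 to 7 when an animal was left out (45 to 721 of all genes). Over the sexes they numbered 3 with DESeq2 (of all genes, 347 of 13247 lower), 5 with quality weights (468 of 14772) and 2 with no filter (371 of 31671). They numbered 0 in the additive model (121 of 14377) and 0 to 3 when an animal was left out (107 to 341 of all genes). For the difference of the sexes 1 was called with DESeq2, quality weights or no filter, and 0 to 1 without an animal. In either direction those fits called 243 of 8951, 232 of 14772 and 358 of 31671 genes, and 0 to 206 without an animal. In females over males 8 were called higher with library totals only, against 3268 of all 14772 genes.

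Counts of all genes called with DESeq2, quality weights and no filter were 707, 743 and 1000 in females (319 in the main test), 264, 529 and 375 in males (115), 821, 1138 and 858 over the sexes (504), and 243, 232 and 358 for the difference (1). Without an animal they ran from 144 to 1479 in females, 41 to 294 in males, 318 to 931 over the sexes and 0 to 206 for the difference. Among promoters of genes tested in females, ER stress element II was in 0.069%, TGACGTG in 2.74% and CCACG in 46.7%. With 3 animals a group, the width of the intervals limits what can be told: the 95% interval of Hyou1 in females reached from -0.40 to 0.18.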

Other observations

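Cytosolic heat shock proteins, the counterparts of these chaperones outside the endoplasmic reticulum, split in females. Of 16 tested, 3 were lower and 1 was higher in KO females (edgeR). Those 3 lower genes also stand in the list of immediate early and dissociation genes above. Hspa1a, an inducible Hsp70, averaged 187 ± 79.9 CPM in KO and 470 ± 88 CPM in Het females (2.52-fold lower, adjusted p = 0.0253), and in males 878 ± 496 CPM in KO and 771 ± 194 CPM in Het cells (adjusted p = 0.908). Its near-identical copy Hspa1b was also lower (2.3-fold, adjusted p = 0.0468), and since reads mapped to several places were not counted, the levels of this pair are uncertain. Dnajb1, a J-domain co-chaperone, was 1.69-fold lower (adjusted p = 0.021). Hspb8, a small heat shock protein, averaged 136 ± 3.15 CPM in KO and 53.9 ± 13.3 CPM in Het females (2.51-fold higher, adjusted p = 0.00105). Cryab, another small heat shock protein, was higher in KO males (1.56-fold, adjusted p = 0.0449).

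Of 14 genes of calcium handling in the endoplasmic reticulum, 1 was lower in KO females. Ryr3, a calcium release channel, averaged 2.3 ± 0.495 CPM in KO and 5.62 ± 1.52 CPM in Het females (2.45-fold lower, adjusted p = 0.0425). In males it averaged 9.08 ± 0.974 CPM in KO and 20.4 ± 3.68 CPM in Het cells (2.24-fold lower, adjusted p = 0.011).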
